A study of Mus musculus with 10 samples.

Results

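The platelet-derived growth factor (PDGF) receptors and ligands are 6 genes of the mouse genome, and their rows were taken from the count table by gene symbol. These are the 2 receptor genes, Pdgfra and Pdgfrb, and the 4 ligand genes, Pdgfa, Pdgfb, Pdgfc and Pdgfd. All 6 were found among the 25229 rows of the table. The cells were adipose stem and precursor cells (ASPCs) of wild-type mice, isolated from the stromovascular fraction of perigonadal white adipose tissue (gWAT), the fat pad beside the gonads. They had been sorted as CD45-CD31-Pdgfra+, that is, without markers of blood and endothelial cells and with the Pdgfra protein on the surface. Every culture was grown without passaging to confluence in a medium with 2% serum, insulin, transferrin, selenium and fibroblast growth factor. The cultures then received either 100 nM FICZ, a tryptophan photoproduct that binds the aryl hydrocarbon receptor (AHR), or its vehicle DMSO, and RNA was collected after 6 hr. There were 5 libraries per group, each numbered 1 to 5. The sources used here do not state whether the numbers mark separate mice or cultures, nor the age or sex of the mice, so that p-values measure the spread between these libraries.

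PDGFs are secreted dimers that pair receptor tyrosine kinases on mesenchymal cells and drive their division, survival and migration. PDGF-A and PDGF-C act mainly through PDGFRA, PDGF-B binds both receptors, and PDGF-D acts mainly through PDGFRB. PDGF-A and PDGF-B are cut by proprotein convertases inside the cell, whereas PDGF-C and PDGF-D carry a CUB domain that must be removed outside the cell before they bind. In adipose tissue PDGFRA is the usual marker of the precursors of adipocytes, while PDGFRB is shared by precursors and the mural cells around vessels. Because the sort before culture required Pdgfra protein, a high level of Pdgfra transcript is not taken as a finding. How far the sort accounts for the level after culture was not tested.

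Depth ranged from 38328611 to 50210111 counts per library, and values are given as CPM, the share of a library's counts scaled to a common library size, here with edgeR's TMM factors. A count of 3, taken as the smallest detectable level, was worth 0.0603 to 0.0787 CPM, which covers counting error only. Of the 14 precursor markers listed, 12 had a mean of at least 10 CPM in DMSO, and their summed level was 11028 to 16291 CPM with DMSO and 10628 to 14798 CPM with FICZ. Markers of other cells were low, with a summed 25.4 to 64.2 CPM with DMSO and 24.5 to 37.9 CPM with FICZ for 11 macrophage genes, and 3.65 to 5.47 CPM with DMSO and 3.20 to 4.81 CPM with FICZ for 5 platelet genes, of which Gp9 had no count in any library. The 8 endothelial genes summed to 65.6 to 88.3 CPM with DMSO and 70.9 to 85.5 CPM with FICZ, mostly from Tek with a mean of 64.4 CPM in DMSO. Of the 7 endothelial genes tested, 6 had a lower estimate with FICZ, with a median log2 fold change of -0.56. Pecam1 and Emcn were lower in 5 of 5 pairs, beside 2.81% of all genes tested (unadjusted p = 0.0477 and 0.0221 with the replicate block, adjusted p = 0.929 for both, edgeR). Their levels were low, with means of 1.48 and 0.50 CPM in DMSO and 1.01 and 0.28 CPM with FICZ. Tek, the endothelial gene with a higher estimate, had means of 64.4 CPM in DMSO and 65.5 CPM with FICZ (log2 fold change 0.02). Estimates were also lower in 10 of 11 macrophage, 12 of 12 hepatocyte, 6 of 7 mural, 4 of 5 hepatic stellate and 2 of 2 platelet genes tested. The counts were 8 of 14 for precursor, 3 of 5 for mesothelial and 3 of 5 for adipocyte genes. The share of all genes with a lower estimate was not counted, and the median log2 fold change of all genes tested was 0.01. The 8 mural genes summed to 50.5 to 85.2 CPM with DMSO and 57.4 to 83.7 CPM with FICZ, with Higd1b at 0 in every library. The 6 adipocyte genes summed to 65.8 to 98.3 CPM with DMSO and 68.0 to 112 CPM with FICZ. The 5 mesothelial genes summed to 63.7 to 84.9 CPM with DMSO and 66.1 to 82.4 CPM with FICZ. Liver transcripts were the exception to these low sums. The 12 hepatocyte genes listed summed to 1681 to 9781 CPM with DMSO and 1808 to 2441 CPM with FICZ, and DMSO replicate 5 stood apart with the 9781 CPM. Within DMSO, that library also had the highest macrophage (64.2 CPM), hepatic stellate (189 CPM) and mesothelial (84.9 CPM) sums. It had the lowest mural (50.5 CPM), platelet (3.65 CPM) and adipocyte (65.8 CPM) sums. At an unadjusted p at or under 0.05 (edgeR), 11 of these 12 genes and 5 of the 11 macrophage genes were lower with FICZ. With the replicate block, which pairs libraries by number, this was so for 0 of the 12 and 1 of the 11. Of all genes tested, 3.49% were lower by this rule without the block and 2.17% with it. The 5 hepatic stellate genes, markers of a liver cell that uses PDGFRB, summed to 134 to 189 CPM with DMSO and 125 to 181 CPM with FICZ, but only Ecm1 had a mean of at least 10 CPM in DMSO (157 CPM), and the other 4 had 0.65 to 2.48 CPM. The part of these cells in the results was not tested, and the Pdgfc result is also given without DMSO replicate 5.

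In these cells both receptors were far more abundant than any ligand. Levels of different genes can be compared only per length, so CPM were divided by the kb of exon of each gene, all exons of the GENCODE annotation merged. In DMSO, Pdgfrb had 160 ± 18.6 and Pdgfra 132 ± 8.81 CPM per kb (SD, n = 5 libraries). The ligand with the highest level was Pdgfd, with 6.66 ± 1.09 CPM per kb, ahead of Pdgfa with 3.21 ± 0.82 and Pdgfc with 0.81 ± 0.24 CPM per kb. Pdgfb came last with 0.081 ± 0.064 CPM per kb. Among the ligands, the libraries of neighbouring genes in this order did not overlap on this scale, but those of the receptors did, since Pdgfra ranged from 119 to 139 and Pdgfrb from 136 to 188 CPM per kb. The order of the receptors also depended on the length used. Pdgfra has 9 annotated transcripts and 10024 bases of merged exon, against 6834 bases in its longest transcript. With the longest transcript of each gene as the length, Pdgfra had 193 ± 12.9 and Pdgfrb 161 ± 18.8 CPM per kb (SD, n = 5), so that neither receptor can be called the more abundant. On that scale Pdgfa reached 6.43 CPM per kb and overlapped with Pdgfd, whose lowest library had 5.49 CPM per kb. Summed over both receptors and over the 4 ligands, receptors exceeded ligands 18.6-fold to 37.4-fold in the 10 libraries on the scale of CPM per kb of merged exon.

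**Figure D1:**
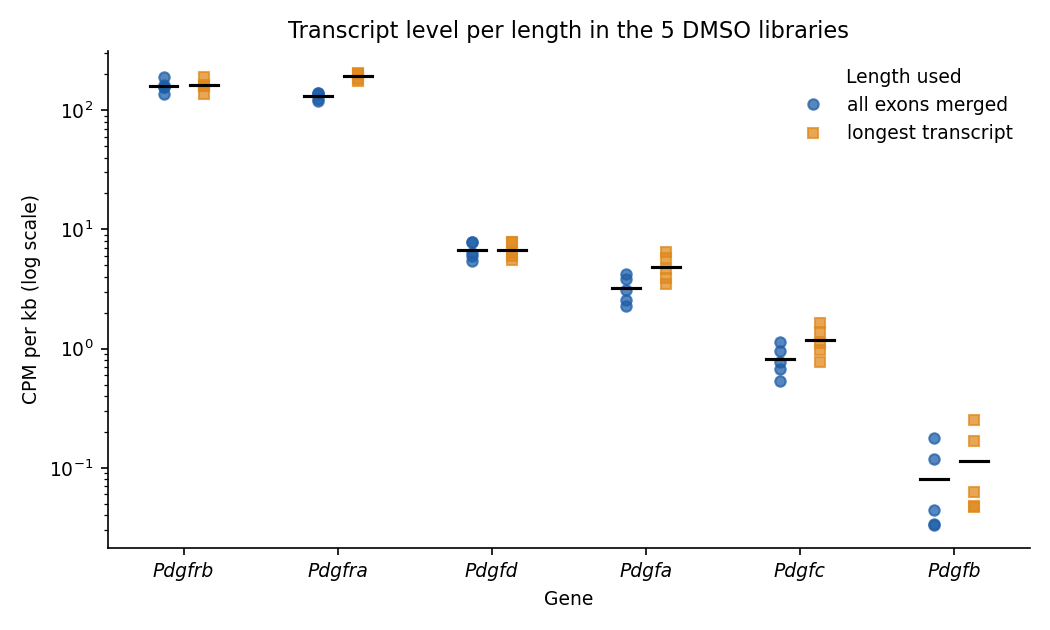
Transcript level of each gene in the 5 DMSO libraries, as CPM per kb on a log axis, with circles for the length of all merged exons and squares for the longest transcript, and a bar at the mean. Both receptors lie between 119 and 203 CPM per kb, all ligands below 8, and the order of Pdgfra and Pdgfrb changes with the length.

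Pdgfra lies on chromosome 5 (75152292 to 75198215, plus strand, GRCm38). It had 1198, 1390, 1372, 1384 and 1253 CPM in DMSO replicates 1 to 5 and 1181, 1416, 1410, 1455 and 1471 CPM with FICZ replicates 1 to 5. FICZ replicate 1 was the lowest library, and the groups overlapped. The log2 fold change of FICZ over DMSO was 0.07 (standard error 0.09, 95% interval -0.12 to 0.26, adjusted p = 0.999, edgeR's quasi-likelihood test). Pdgfra was higher with FICZ in 4 of 5 same-numbered pairs, and the difference in mean log2 CPM was 0.07 with an exact permutation p of 0.302 (two-sided, 252 arrangements, smallest possible p 0.00794). Without FICZ replicate 1 the difference was 0.13 with an exact permutation p of 0.0317. Other settings moved the estimate the other way, since the edgeR log2 fold change was 0.02 without DMSO replicate 1, with Alb as a covariate (with or without the block) and without pair 5 in the block fit. Other genes, among them its antisense gene Gm42802, share 4.93% of the 50-base words of Pdgfra.

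Pdgfrb lies on chromosome 18 (61045150 to 61085061, plus strand). Its levels were 747, 857, 882, 1032 and 860 CPM in DMSO replicates 1 to 5 and 667, 827, 896, 1031 and 932 CPM with FICZ replicates 1 to 5. Replicate 1 was the lowest and replicate 4 the highest in both groups. Both libraries numbered 1 had the same count, 28500, at totals of 38328611 and 42897708 counts. The log2 fold change was -0.01 (standard error 0.12, 95% interval -0.28 to 0.26, adjusted p = 0.999, edgeR), and the exact permutation p was 0.913. In the fit that pairs libraries by number (a replicate block) the interval was -0.17 to 0.14.

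The balance of both receptors within a library needs no scaling between libraries and was taken as the ratio of Pdgfra counts to Pdgfrb counts. The ratio was 1.60, 1.62, 1.56, 1.34 and 1.46 in DMSO replicates 1 to 5 and 1.77, 1.71, 1.57, 1.41 and 1.58 in FICZ replicates 1 to 5. It was higher with FICZ in 5 of 5 pairs, yet the groups overlapped, and the means were 1.52 ± 0.12 with DMSO and 1.61 ± 0.14 with FICZ (SD, n = 5). The difference in the mean log2 ratio was 0.09, with an exact permutation p of 0.294 without pairing. By sign flips within pairs the exact p was 0.0625, the smallest that 5 pairs can give, so the paired comparison could not pass the threshold of 0.05.

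**Figure D2:**
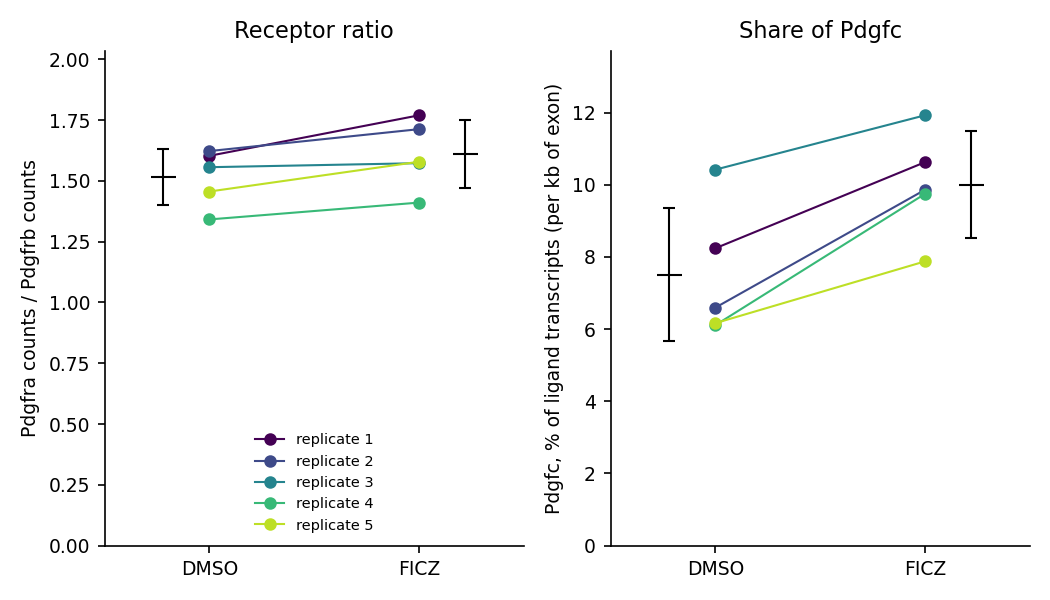
Ratio of Pdgfra to Pdgfrb counts (left) and Pdgfc as a percent of the 4 ligands' counts per kb of exon (right) in each library, with lines joining the DMSO and FICZ libraries of the same number and black marks for mean ± SD (n = 5). All 5 lines slope upward in both panels, and the groups overlap in both. Over both groups together, the libraries range from 1.34 to 1.77 for the ratio and from 6.11 to 11.9% for the share.

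Among the ligands Pdgfc was the gene with the largest estimated difference of the 5 members that passed the filter on low counts. Pdgfc, a ligand of PDGFRA with a CUB domain, lies on chromosome 3 (81036416 to 81214040, plus strand). Its counts were 185, 196, 253, 118 and 166 in DMSO replicates 1 to 5 and 297, 299, 296, 192 and 173 in FICZ replicates 1 to 5. Scaled to library size this was 4.85, 3.94, 5.79, 2.72 and 3.41 CPM with DMSO and 6.95, 6.34, 7.47, 4.42 and 4.00 CPM with FICZ. Each FICZ library was above the DMSO library of its own number, by 1.43, 1.60, 1.29, 1.62 and 1.17-fold in pairs 1 to 5 (on the log2 CPM scale with a prior count of 2). The groups overlapped, because FICZ replicates 4 and 5 lay below DMSO replicates 1 and 3.

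The mean of Pdgfc was 4.14 ± 1.21 CPM with DMSO and 5.84 ± 1.55 CPM with FICZ (SD, n = 5). Without pairing the log2 fold change was 0.50 (standard error 0.24, 95% interval -0.02 to 1.01, adjusted p = 0.999, edgeR) and the unadjusted p was 0.0594. The replicate block left the estimate at 0.50 and gave a standard error of 0.11, a 95% interval of 0.23 to 0.77 and an unadjusted p of 0.00295 (edgeR). This was rank 66 among the 14251 genes tested, and the adjusted p over all of them was 0.638, so Pdgfc did not pass the threshold in either fit. The block fit gave an unadjusted p at or under 0.05 with a higher level in FICZ to 2.48% of all genes tested and to Pdgfc alone of the 5 members, and 4.32% of all genes were higher in all 5 pairs. The exact permutation p was 0.0952 without pairing and 0.0625 by sign flips, again the smallest possible. Without DMSO replicate 5, the library with the most liver transcripts, the log2 fold change was 0.43 (standard error 0.25, unadjusted p = 0.106, edgeR), and without pair 5 in the block fit it was 0.56 (standard error 0.11, unadjusted p = 0.00158). With the level of Alb, the albumin gene, as a covariate it was 0.42 without the block (standard error 0.25, unadjusted p = 0.12, edgeR) and 0.54 with it (standard error 0.13, unadjusted p = 0.00148, edgeR). Of the words of 50 bases in the transcripts of Pdgfc, 1.95% also occur in other transcripts, those of its antisense gene Gm16000, and reads there cannot be told apart if strand was not used in counting.

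Pdgfa, also a ligand of PDGFRA, lies on chromosome 5 (138976014 to 138997370, minus strand) and had 13.2, 9.66, 11.9, 8.04 and 7.14 CPM in DMSO replicates 1 to 5 and 10.5, 10.9, 12.7, 9.14 and 6.58 CPM with FICZ replicates 1 to 5. Replicates 1 to 3 were above replicates 4 and 5 in both groups. The means were 10.0 ± 2.57 and 9.97 ± 2.28 CPM (SD, n = 5), and the log2 fold change was 0.00 with a 95% interval of -0.45 to 0.44, or -0.24 to 0.25 with the block (adjusted p = 0.999 in both, edgeR). The level of Pdgfa is uncertain, since 21.3% of its 50-base words also occur in the antisense gene 6330403L08Rik and the sources used here do not say whether reads were counted by strand.

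Pdgfd, a ligand of PDGFRB and the most abundant of the ligands, lies on chromosome 9 (6168584 to 6378850, plus strand). It had 20.0, 24.7, 18.7, 17.2 and 24.5 CPM in DMSO replicates 1 to 5 and 25.5, 24.6, 21.2, 16.0 and 22.3 CPM with FICZ replicates 1 to 5. It was higher with FICZ in 2 pairs and lower in 3. The log2 fold change was 0.06 (standard error 0.14, 95% interval -0.25 to 0.38, adjusted p = 0.999, edgeR), with an exact permutation p of 0.738.

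Pdgfb, the ligand that binds both receptors and is known as a product of endothelial cells, platelets and macrophages, was close to the floor. The gene lies on chromosome 15 (79995874 to 80014977, minus strand). Its counts were 7, 7, 6, 32 and 24 in DMSO replicates 1 to 5 and 6, 18, 6, 10 and 0 in FICZ replicates 1 to 5. The 0 in FICZ replicate 5 allows a level of up to 0.0693 CPM. Pdgfb was highest in DMSO replicates 4 and 5 and in FICZ replicate 2, and it did not pass the filter on low counts. The exact permutation p of log2 CPM was 0.294, and the difference was -0.81 on a scale with a prior count of 2. Over the 10 libraries, the log2 CPM of Pdgfb had a Pearson r of 0.40 with Ptprc, the CD45 gene. It was 0.48 with Alb and 0.25 with Csf1r, a macrophage marker. Platelet and endothelial markers were not set against Pdgfb. Whether a few other cells contributed the Pdgfb counts was not tested, and in bulk RNA fewer cells of a type and less RNA per cell cannot be told apart.

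**Figure D3:**
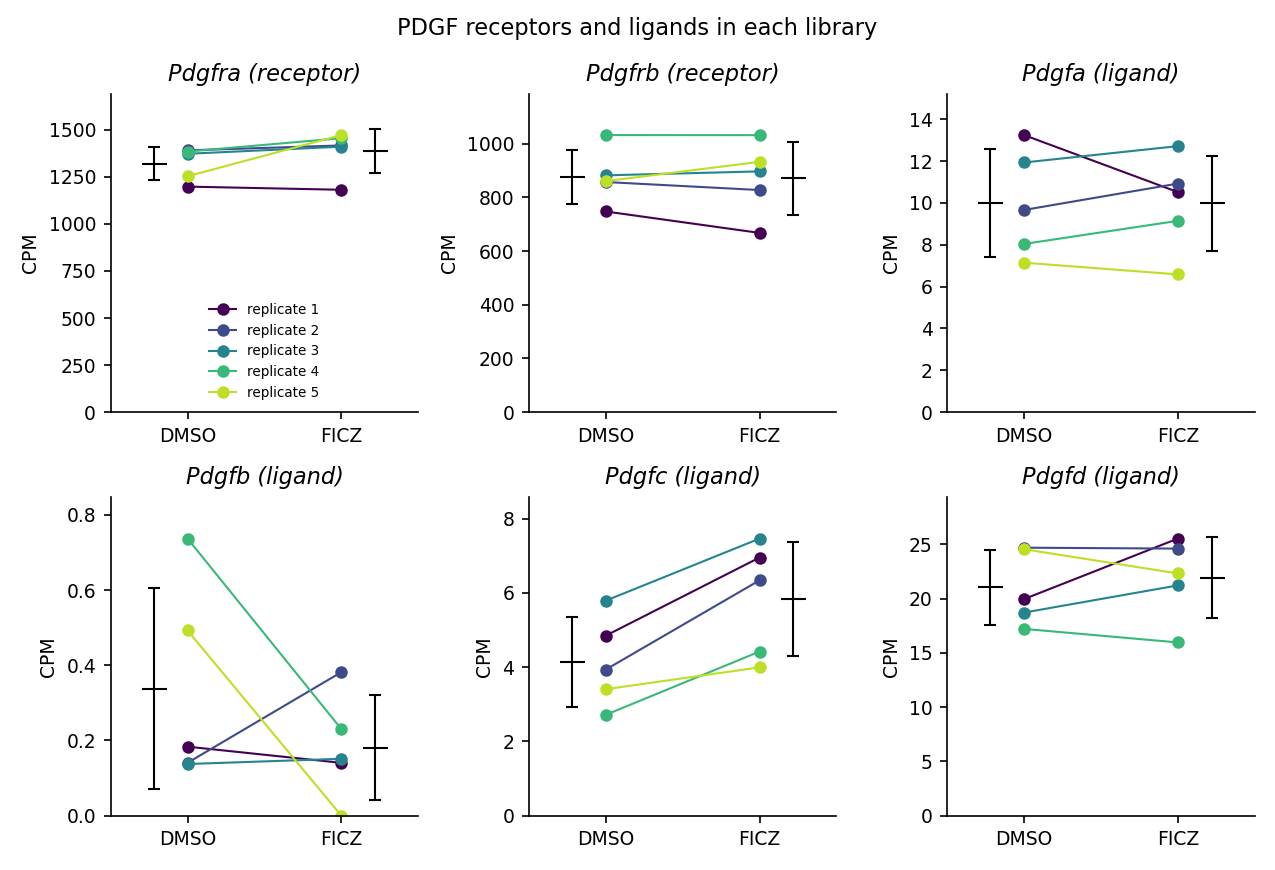
CPM of the 6 genes in each library, with lines joining DMSO and FICZ libraries of the same number and black marks for mean ± SD (n = 5 per group), on linear axes from 0. Pdgfc is the one gene whose 5 lines all slope upward, by 1.17-fold to 1.62-fold, while Pdgfb stays at or below 0.74 CPM throughout.

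Per kb of exon, Pdgfd made up 61.9 ± 7.56% of the ligand transcripts in DMSO, Pdgfa 29.7 ± 6.37%, Pdgfc 7.50 ± 1.84% and Pdgfb 0.82 ± 0.75% (SD, n = 5). With FICZ the shares were 61.4 ± 6.34%, 28.2 ± 4.99%, 10.0 ± 1.47% and 0.38 ± 0.29%. The share of Pdgfc was 8.24, 6.59, 10.4, 6.11 and 6.16% in DMSO replicates 1 to 5 and 10.6, 9.86, 11.9, 9.75 and 7.88% in FICZ replicates 1 to 5. It was higher with FICZ in 5 of 5 pairs, by 2.50 percentage points on average, with an exact permutation p of 0.0635 without pairing and 0.0625 by sign flips. With the longest transcript as the length the difference was 3.03 percentage points (exact permutation p = 0.0476). In the 10 comparisons without 1 library it was 2.02 to 3.23, with exact permutation p-values of 0.0238 to 0.119. The p was above the one from all libraries in 7 of these 10, with the highest without FICZ replicate 3, and at or under 0.05 in 2, without DMSO replicate 3 (p = 0.0238, exact) and without FICZ replicate 5 (p = 0.0397, exact). The shares of Pdgfa, Pdgfb and Pdgfd gave exact permutation p-values of 0.651, 0.27 and 0.881. The difference of -0.44 percentage points in Pdgfb was -0.13 without DMSO replicate 4, in which Pdgfb made up 2.03%.

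No member passed the threshold. Of the 5 members tested, 0 had an adjusted p at or under 0.05 in either edgeR fit, where 3 genes of all 14251 (0.0211%) did so without the block and 8 genes (0.0561%) with it. At an unadjusted p at or under 0.05 the counts were 0 of 5 members without the block, against 4.82% of all genes, and 1 of 5 with it, namely Pdgfc, against 4.65% of all genes. DESeq2 also called 0 members, with an adjusted p of 0.956 for Pdgfc, or 0.366 with the block, and unadjusted p-values of 0.0445 and 0.00195. In 0 of the 6 members did the groups of libraries stand apart, which was so for 0.47% of all genes, and 0 members were lower in all 5 pairs, against 2.81% of all genes. The cells had responded to FICZ, since Cyp1a1, the P450 gene used as the marker of AHR activity, rose by 3.25 on the log2 scale (standard error 0.38, adjusted p = 0.0189, edgeR; 5 of 5 pairs). In the fit without the block Cyp1a1 lost its call without DMSO replicate 1 or 2, without FICZ replicate 1, 2 or 3 (adjusted p-values up to 0.0924, edgeR), with no filter on low counts (0.0726) and with Alb as a covariate (0.0656). With the block its adjusted p was at most 0.00359 in the 5 fits without 1 pair.

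**Figure D4:**
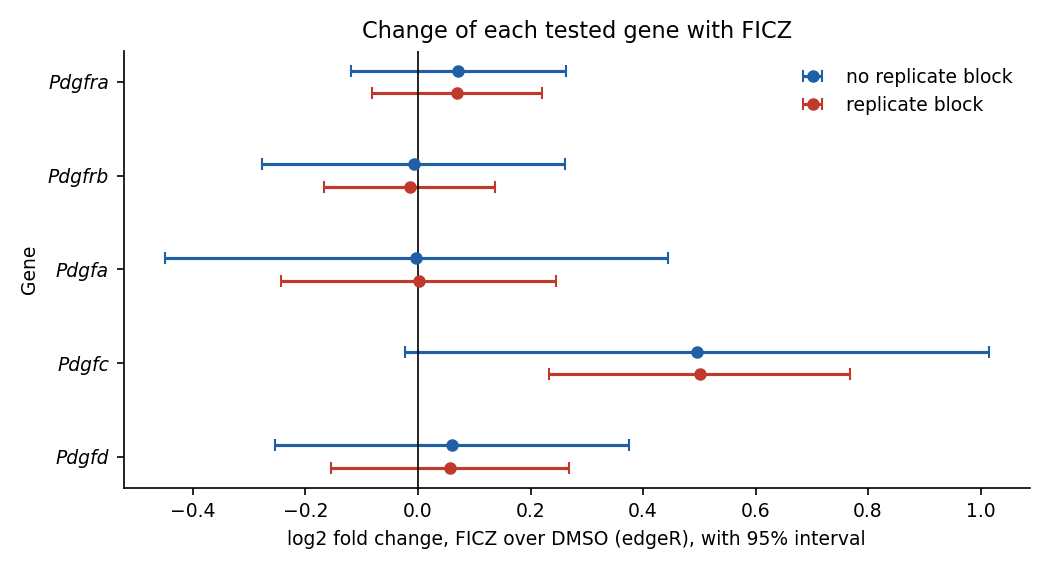
Log2 fold change of FICZ over DMSO for the 5 genes that passed the filter on low counts, with 95% intervals from edgeR without (blue) and with (red) the replicate block. Only the interval of Pdgfc with the block, 0.23 to 0.77, lies wholly above 0.

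Promoter sequences are shown for Pdgfc, which was higher with FICZ in 5 of 5 pairs but did not pass the threshold. They are also shown for Pdgfa, the ligand with a match to the letters GCGTG, and for Cyp1a1. AHR with its partner ARNT binds the letters GCGTG, which both strands were searched for in RefSeq windows of GRCm38.p6 that reach from 250 bases before to 50 bases after each start. The same letters are one form of the hypoxia-response motif. Of 32851 such windows, 32.4% held at least 1 match. The table matched Pdgfra, Pdgfa, Pdgfc and Pdgfd. No match was found in the windows of Pdgfra, Pdgfc and Pdgfd or in the first of the 2 windows of Pdgfa. The other window of Pdgfa held 1 match, on the reverse strand and 231 bases before the start, and the window of Cyp1a1 held 1 match, 54 bases before the start. The windows, 5′ to 3′ on the strand of the gene with matches on either strand in capitals, are those of Pdgfc (chr3:81036166-81036465, plus strand), Pdgfa (chr5:138994895-138995194, minus strand) and Cyp1a1 (chr9:57697363-57697662, plus strand).
Pdgfc: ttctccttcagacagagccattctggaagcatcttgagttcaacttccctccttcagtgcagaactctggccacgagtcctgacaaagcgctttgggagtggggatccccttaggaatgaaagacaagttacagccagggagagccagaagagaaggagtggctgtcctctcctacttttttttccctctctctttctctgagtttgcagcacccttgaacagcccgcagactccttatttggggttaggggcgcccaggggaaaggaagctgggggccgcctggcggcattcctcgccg
Pdgfa: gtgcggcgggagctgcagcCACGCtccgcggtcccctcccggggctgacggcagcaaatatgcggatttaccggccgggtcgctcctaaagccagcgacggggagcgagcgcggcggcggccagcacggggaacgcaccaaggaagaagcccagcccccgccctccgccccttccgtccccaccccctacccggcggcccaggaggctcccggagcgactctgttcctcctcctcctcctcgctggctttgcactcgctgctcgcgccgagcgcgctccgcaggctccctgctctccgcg
Cyp1a1: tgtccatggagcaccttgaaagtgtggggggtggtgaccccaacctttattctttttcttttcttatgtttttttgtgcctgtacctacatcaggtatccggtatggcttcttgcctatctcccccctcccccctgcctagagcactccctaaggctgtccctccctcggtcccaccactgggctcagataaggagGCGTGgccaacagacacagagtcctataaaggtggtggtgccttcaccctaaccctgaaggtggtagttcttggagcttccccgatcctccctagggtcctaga
A match describes letters in the window and not binding, and the absence of one says only that these letters do not stand there. Whether AHR acts on Cyp1a1 through the match 54 bases before its start was not tested. Sites more than 250 bases before a start lie outside the windows, and the bases beside the letters were not searched.

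Genes that act with PDGF were read from 7 lists, of which 94 genes were tested. None passed the threshold in either edgeR fit, with 3 genes at an unadjusted p at or under 0.05 without the block and 4 with it, beside 4.82% and 4.65% of all genes tested. The median log2 fold change of the 94 genes was 0.00, beside 0.01 for all genes tested. Of the 7 proteases that process the ligands, including the convertase genes and Plat, whose product activates PDGF-C, the smallest p belonged to Pcsk6, a convertase (56.0 ± 5.29 CPM in DMSO, 60.9 ± 4.30 CPM with FICZ, SD, n = 5; log2 fold change 0.12, unadjusted p = 0.179, edgeR). Among 5 co-receptor and matrix genes it belonged to Thbs1, the gene of thrombospondin 1, an extracellular matrix glycoprotein. Thbs1 had 733 to 2931 CPM with DMSO and 945 to 3841 CPM with FICZ, and its log2 fold change was 0.28 (standard error 0.40, unadjusted p = 0.502, edgeR), or 0.30 with the block (standard error 0.10, unadjusted p = 0.0239, adjusted p = 0.929, edgeR). The libraries of one group thus spanned a wider range than the estimated difference between the groups.

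Downstream of the receptors the estimates stayed close to 0. The 20 adaptor genes ranged around a median of 0.02 and the 15 genes of the Ras and Akt cascades around 0.01. The smallest p in each list was that of Grb10, an adaptor (log2 fold change -0.07, unadjusted p = 0.329, edgeR), and of Mapk3, the gene of ERK1 (log2 fold change -0.14, unadjusted p = 0.230, edgeR). Among 15 negative regulators the median was 0.00 and the smallest p that of Ptpn2, a tyrosine phosphatase, with 27.0 ± 3.82 CPM with DMSO and 30.0 ± 1.43 CPM with FICZ (SD, n = 5; log2 fold change 0.16, unadjusted p = 0.155, edgeR).

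The 22 genes known to respond early to PDGF or serum had a median log2 fold change of 0.05. Ier3, an immediate early gene, had 17.5 ± 3.87 CPM with DMSO and 22.5 ± 3.51 CPM with FICZ (SD, n = 5) and was higher in 5 of 5 pairs. Its log2 fold change was 0.36 (standard error 0.16, unadjusted p = 0.0464, adjusted p = 0.999, edgeR). Dusp1, a phosphatase gene of the same list named after its values were seen, was lower in 5 of 5 pairs (log2 fold change -0.21, standard error 0.09, unadjusted p = 0.0468, adjusted p = 0.999, edgeR). Of the 94 genes, 5 were higher in all 5 pairs, namely Pcsk6, Ptpn2, Acp1, Ier3 and Odc1, and 2 were lower in all 5, Dusp1 and Pgf. Acp1 and Odc1 were likewise named after their values were seen. As shares of 94 these counts stand beside the 4.32% and 2.81% of all genes.

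The relatives of the family by structure, the VEGF ligands and the receptor tyrosine kinases nearest to the PDGF receptors, gave 10 tested genes with a median log2 fold change of -0.11. Pgf, the gene of placental growth factor, had 0.61 ± 0.18 CPM with DMSO and 0.30 ± 0.14 CPM with FICZ (SD, n = 5), and its log2 fold change was -1.04 (standard error 0.40, unadjusted p = 0.0242, adjusted p = 0.999, edgeR), at counts of 19 to 36 in DMSO and 3 to 18 in FICZ. Csf1r lies 15536 bases downstream of Pdgfrb on the same strand. It had 9.79 to 18.3 CPM in the 10 libraries and was the only macrophage marker with a mean of at least 10 CPM in DMSO, while Ptprc had 0.14 to 1.70 CPM. The log2 CPM of Csf1r had a Pearson r of -0.28 with Pdgfrb and of 0.69 with both Pdgfa and Pdgfc. Where the Csf1r counts came from was not tested. Kit lies 376700 bases downstream of Pdgfra and had 6.96 to 27.5 CPM with DMSO and 8.45 to 33.6 CPM with FICZ, with the highest level in replicate 5 and the next in replicate 4 of both groups. Csf1r, Kit and Flt4, a VEGF receptor gene of this list, and the single markers of other cell types given above were named after their values were seen.

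**Figure D5:**
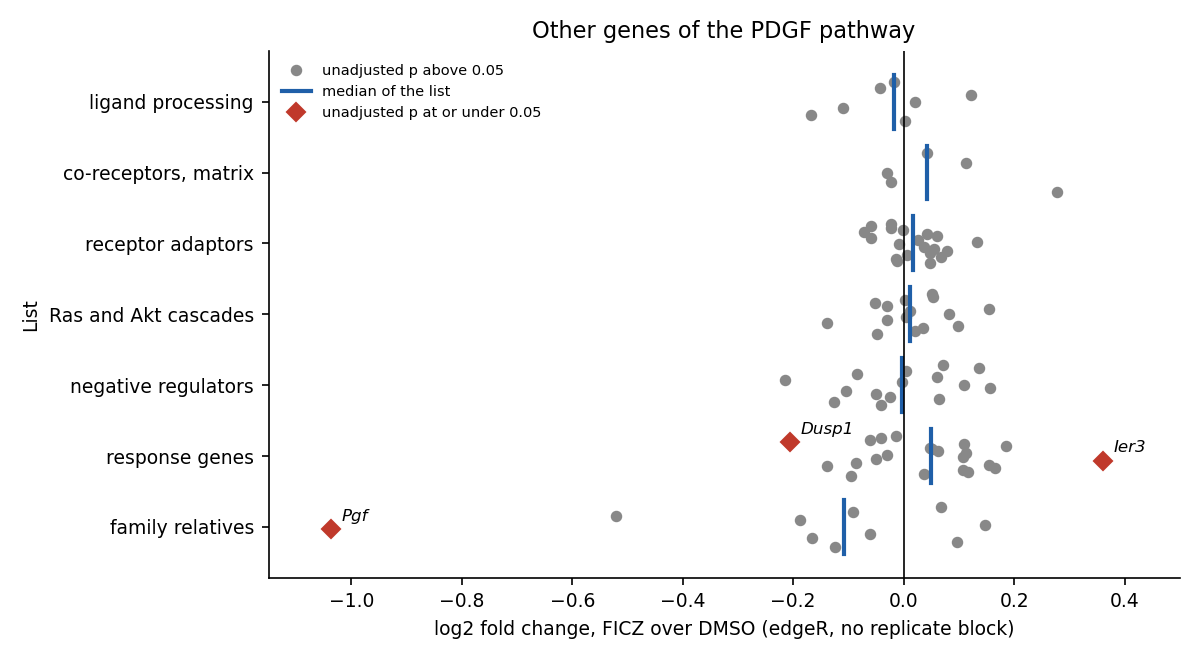
Log2 fold change of FICZ over DMSO (edgeR without the block) for the 94 tested genes of 7 lists, 1 point per gene, with a blue bar at the median of each list and red diamonds for an unadjusted p at or under 0.05. The points farthest from 0 are Pgf at -1.04 and Flt4 at -0.52 on the left and Ier3 at 0.36 and Thbs1 at 0.28 on the right, and no gene passed the threshold after adjustment.

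Several members, but not all, kept a like order of replicate numbers in both groups. The order of libraries from highest to lowest was 3, 1, 2, 5, 4 in DMSO and 3, 1, 2, 4, 5 in FICZ for Pdgfc. For Pdgfrb it was 4, 3, 5, 2, 1 in DMSO and 4, 5, 3, 2, 1 in FICZ. For Pdgfa it was 1, 3, 2, 4, 5 in DMSO and 3, 2, 1, 4, 5 in FICZ. For Pdgfra it was 2, 4, 3, 5, 1 in DMSO and 5, 4, 2, 3, 1 in FICZ. For Pdgfd it was 2, 5, 1, 3, 4 in DMSO and 1, 2, 5, 3, 4 in FICZ. For Pdgfb it was 4, 5, 1, 2, 3 in DMSO and 2, 4, 3, 1, 5 in FICZ. For Cyp1a1 it was 3, 1, 2, 5, 4 in both groups. How many of all genes share that order was not counted. The log2 CPM of Pdgfc and Cyp1a1 had a Pearson r of 0.80, which includes the difference between the groups, and a link of Pdgfc with Cyp1a1 was not tested. Pdgfra and Pdgfrb had a Pearson r of 0.80 between their log2 CPM, Pdgfa and Pdgfc one of 0.73, and Pdgfrb and Pdgfd one of -0.67. These are descriptions over 10 libraries that share treatment groups and replicate numbers. The genes most like each member, among about 10725 genes of at least 5 CPM, followed the same libraries. For Pdgfc they were Serpinb2 (r 0.97), Slc22a4 (0.96) and Mmp10 (0.95), for Pdgfa Dimt1 (0.98), Baiap2l1 (0.98) and Shmt2 (0.97), and for Pdgfd they included Ciao2a (0.91) and Mrpl50 (0.90). For Pdgfra they were Cep350 (0.97), Mycbp2 (0.96) and Plcb4 (0.96), and for Pdgfrb they included Egfr (0.97) and Notch3 (0.95). Serpinb2 had 11.8 ± 5.95 CPM with DMSO and 25.3 ± 10.1 CPM with FICZ (SD, n = 5), so its likeness to Pdgfc includes the difference between the groups.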

How the data were processed

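Bulk RNA sequencing gave 10 libraries of cultured cells. Reads were aligned with STAR 2.7.7 to mm10 per the labels, and the table the authors deposited holds whole-number counts for each gene symbol that had not been normalized. The counting program, annotation and strand setting are not given in the sources used here. Libraries of one group differed by more than sampling noise (chi-square per degree of freedom of 15.7 to 266), so each was counted as 1 sample.

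From these counts, edgeR 4.0.16 in R 4.3.3 (quasi-likelihood test, TMM, filter by expression, 14251 genes) compared FICZ with DMSO, with Benjamini-Hochberg adjustment over all genes tested and a threshold of 0.05. Single values were compared by exact two-sided permutation tests of log2 CPM (prior count 2), of log2 ratios and of percents. Alternatives were the replicate block, DESeq2 1.42.0, limma-voom (limma 3.58.1), other scalings, filters and lengths, Alb as a covariate and leaving out each library. The replicate numbers were used as pairs, since deviations from the group means correlated by 0.154 to 0.317 in the 5 same-numbered pairs. The average in other pairs, -0.06, is nearly forced, because deviations within a group cancel out, and is no separate evidence of pairing. The block fits without 1 pair, without a filter and with Alb as a covariate were chosen after seeing the data. The members and lists were chosen with earlier results of these data known. Named genes were the members, per list the gene with the smallest p, the 3 genes most like each member, Cyp1a1 and Alb, and not every gene the rule names is reported here. Of the symbols, 96.6% were found in GENCODE vM21 (GRCm38), which gave coordinates and lengths. The tests were tried first on simulated counts with known changes.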

Additional observations from a re-analysis of the deposited data

Results flagged for a closer look

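In 22 groups of 5 libraries (CPM of the 6 genes, the ratio of both receptors and the 4 ligand shares), the gap between the highest or lowest library and its neighbour was set against the range of the group. Chance passes the limit in about 1 of 20 groups, or 1.1 of these, and 1 did. This was the CPM of Pdgfra in FICZ, in which replicate 1 (1181 CPM) lay below the 4 others (1410 to 1471 CPM), with a gap of 0.788 of the range. DMSO replicate 1 was also the lowest of its group, at 1198 CPM.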

How the results depend on the processing

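No alternative called a member past the threshold of all genes. The replicate block, in which same-numbered libraries are paired, raised the number of genes past the threshold from 3 to 8 in edgeR, and the count was 16 with DESeq2, 26 with DESeq2 and the block, 9 with the block and no filter on low counts, 16 with the block and Alb as a covariate, 1 to 4 without 1 library and 1 to 8 without 1 pair in the block fit. The cause was not tested. The log2 fold change of Pdgfc was 0.42 to 0.54 under the other settings, 0.38 to 0.65 without 1 library and 0.45 to 0.56 without 1 pair in the block fit.

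Estimates near 0 changed sign. For Pdgfa the log2 fold change was 0.0013 with the block, 0.011 with limma-voom, 0.055 with the block and Alb as a covariate, and -0.10 to 0.10 without 1 library, and the difference in log2 CPM was -0.015 with library size only. Without 1 library the difference in mean log2 CPM was 0.036 to 0.13 for Pdgfra, -0.080 to 0.077 for Pdgfrb, -0.11 to 0.14 for Pdgfa, -1.12 to -0.31 for Pdgfb, 0.36 to 0.63 for Pdgfc and -0.011 to 0.17 for Pdgfd. The edgeR log2 fold change was then -0.075 to 0.075 for Pdgfrb and -0.0033 to 0.16 for Pdgfd. Without 1 pair in the block fit it was -0.055 to 0.012 for Pdgfrb, -0.045 to 0.075 for Pdgfa (0.075 without pair 1, 0.022 without pair 5) and -0.028 to 0.099 for Pdgfd. The log2 ratio of both receptors differed by 0.04 to 0.13 without 1 library. The share of Pdgfa differed by -3.68 to 0.25, that of Pdgfb by -0.57 to -0.13, that of Pdgfc by 2.02 to 3.23 and that of Pdgfd by -2.94 to 1.88 percentage points. With the longest transcript as the length the share of Pdgfc differed by 3.03 percentage points, and the levels in DMSO were 193 for Pdgfra, 4.86 for Pdgfa and 1.18 CPM per kb for Pdgfc. Sign flips within pairs could change no call, because 5 pairs cannot reach a p below 0.0625. With all libraries and merged exons, no exact permutation p was at or under 0.05 to begin with.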
